A study of Mus musculus with 9 samples.

Results

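Transcripts of the mitochondrial genome were examined in the mouse hippocampus. They were taken as every gene placed on chromosome MT in the later of the 2 deposited expression tables, whatever its biotype, which gave 37 of the 54532 genes listed there: 13 protein-coding genes, 22 tRNA genes and 2 rRNA genes. Total RNA was sequenced in 9 hippocampi, 3 per group, from mice of the strain C57BL/6 that were 6 to 8 weeks old when bought. Con mice were kept on standard chow and HMD mice on chow high in methionine over 8 weeks. Bet+HMD mice had the same 8 weeks of high methionine, followed by 2 weeks of betaine at 2.5% (w/v) in their water. Whether the high-methionine diet went on during the betaine weeks is not clear, and the Bet+HMD hippocampi were taken later by those weeks. The labels call the mice male, whereas the study's methods call them female, and the strain labels of the Bet+HMD mice read C57BL/6, C57BL/7 and C57BL/8. The table names its control columns COL, and their match to Con is inferred. The comparisons ask whether the diet, and betaine given on top of it, went with a different level of mitochondrial transcripts.

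Mitochondrial DNA is a small circle that is transcribed from both strands into long precursors. The tRNAs lie between the other genes, and cutting them out releases the mRNAs and rRNAs. The coding genes specify subunits of the respiratory chain and of ATP synthase: mt-Nd1 to mt-Nd6 and mt-Nd4l for complex I, mt-Cytb for complex III, mt-Co1 to mt-Co3 for complex IV, and mt-Atp6 and mt-Atp8 for ATP synthase. The rRNAs and tRNAs serve the mitochondrial ribosome, and all other proteins of these complexes come from nuclear genes. Neurons depend on this machinery for much of their energy. Pieces of mitochondrial DNA have also been copied into nuclear chromosomes, where annotations list them as pseudogenes.

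One such copy ran through the results. The deposited table lists 7 pseudogenes in a row on chromosome 1, on the minus strand at chr1:24611535-24616197 (GRCm38), which lie in the reverse order of the mitochondrial genes at MT:6381-11042. In the GENCODE M21 transcripts 4149 bases could be aligned without gaps between the pseudogenes and the mitochondrial genes, and 7 of these differed, an identity of 99.83%. Of the coding genes, 6 lie wholly inside this stretch (mt-Co2, mt-Atp8, mt-Atp6, mt-Co3, mt-Nd3 and mt-Nd4l), 2 lie partly inside (31.8% of mt-Co1 and 63.6% of mt-Nd4) and 5 lie outside. Both rRNA genes and 17 tRNA genes are outside, and 5 tRNA genes are inside. A read from an identical stretch has 2 equally good places in the genome, and how the authors' counting treated such reads is not stated. mt-Atp8 and the tRNA genes inside have no annotated pseudogene of their own, so their place in the copy was read from their position alone. Apart from this stretch, the pseudogene Gm13340 on chromosome 2 aligned over all 1545 bases of mt-Co1 with 37 differences (97.61% identity). Gm13340 had 22, 30 and 53 reads in Con, 31, 31 and 22 in HMD, and 45, 55 and 74 in Bet+HMD.

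The sequences below are those of the 3 coding genes that rose in both betaine comparisons, and of the nuclear copy on which 1 of these calls depended (GENCODE M21, GRCm38, 5′ to 3′ on the gene's own strand). In mt-Atp8 (MT:7766-7969, plus strand) the capitals mark the 43 bases shared with mt-Atp6, and in mt-Nd4l (MT:9877-10173, plus strand) they mark the 7 bases shared with mt-Nd4. Of mt-Nd3 (MT:9459-9806, plus strand) and Gm28438 (chr1:24612775-24613119, minus strand) the first 60 bases are shown, MT:9459-9518 and chr1:24613060-24613119, and the capitals mark the only difference in 345 aligned bases, T3C, with the mitochondrial base first and positions counted from 1 at the start of mt-Nd3. The copy of mt-Nd4l, Gm10222 (chr1:24612407-24612700, minus strand), had 0 differences in 294 aligned bases.
mt-Atp8: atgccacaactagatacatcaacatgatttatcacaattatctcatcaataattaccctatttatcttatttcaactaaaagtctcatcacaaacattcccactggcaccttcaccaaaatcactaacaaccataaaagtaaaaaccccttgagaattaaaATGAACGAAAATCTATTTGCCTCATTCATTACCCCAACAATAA
mt-Nd4l: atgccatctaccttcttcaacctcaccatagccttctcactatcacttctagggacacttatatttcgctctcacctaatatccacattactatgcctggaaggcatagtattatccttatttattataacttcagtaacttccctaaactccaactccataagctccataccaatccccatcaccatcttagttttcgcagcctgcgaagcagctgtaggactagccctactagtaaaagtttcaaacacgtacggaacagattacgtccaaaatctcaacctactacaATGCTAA
mt-Nd3: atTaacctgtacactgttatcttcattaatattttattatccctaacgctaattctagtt
Gm28438: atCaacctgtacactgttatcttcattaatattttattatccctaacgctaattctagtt

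The libraries held 16031464 to 18291952 reads assigned to genes. FPKM, fragments per gene length and sequencing depth, is used for levels, and differences are given on the scale log2(FPKM + 1), which understates changes of low genes. The depth in the deposited FPKM is not the count of assigned reads. It was 17372022 to 17688380 in Bet+HMD, above all assigned counts there (16602496 to 16857079). In HMD it was 15324182 to 17375036 and in Con 16208045 to 18086520. There it lay below the assigned reads in some libraries and above them in others. FPKM and shares of reads thus differ in scale between groups. In HMD versus Con, limma called 0% of 13004 tested genes at an adjusted p under 0.05 (588 had an unadjusted p under 0.05, and limma voom called 0), whereas it called 48.3% of 13672 in Bet+HMD versus HMD (22.8% higher and 25.5% lower) and 39.7% of 13643 in Bet+HMD versus Con (19.4% higher and 20.4% lower). The 8 RNAs of a list of nuclear-retained RNA, with Malat1 and Meg3 among them, took 1.17% to 1.23% of reads in the Bet+HMD libraries and 0.102% to 0.164% in the others. The Bet+HMD libraries appear in the later table only, so a batch and betaine cannot be told apart. All 9 genes of a hippocampus marker list had a mean of at least 1 FPKM in every group. The summed FPKM of 7 microglia markers was 101 to 107 in Bet+HMD, 123 to 142 in HMD and 142 to 163 in Con. That of 8 thalamus markers was 27.2 to 85.5 in HMD and 17.3 to 21.8 in Con, and that of 5 blood markers 149 to 233 in HMD and 99.8 to 148 in Con. As shares of reads, thalamus markers stayed higher in HMD (0.0169% to 0.0547%, against 0.0117% to 0.0139%). Blood markers overlapped on that scale (0.0111% to 0.0183%, against 0.00746% to 0.0119%). In summed FPKM, Bet+HMD was lowest for 9 neuron markers (998 to 1010, against 1041 to 1293 in the others) and 6 endothelium markers (47.9 to 49.9, against 55.2 to 68.2). As shares of reads both overlapped the other groups. Neuron markers took 0.797% to 0.808% against 0.762% to 0.895%, and endothelium markers 0.0266% to 0.027% against 0.0242% to 0.0281%. The microglia share stayed lowest in Bet+HMD (0.026% to 0.0264%, against 0.0289% to 0.0348%). FPKM summed over all genes was 249135 to 258514 in Bet+HMD and 288439 to 307899 in the others. The part of these lists in the results was not tested. In bulk tissue, fewer cells of a type and less RNA per cell cannot be told apart.

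The share of reads on the 37 genes overlapped between all 3 groups. They held 7.99%, 10% and 7.37% of reads in Con, 8.86%, 8.43% and 8.17% in HMD, and 8.47%, 7.96% and 8.12% in Bet+HMD. The means were 8.46% ± 1.38, 8.49% ± 0.349 and 8.18% ± 0.259 (SD, n = 3 each), and the Con libraries spanned those of the other groups. With 3 samples against 3, a two-sided exact permutation test cannot give a p under 0.1. Coding genes made up 84.4% to 89.4% of the mitochondrial reads, rRNA genes 10.3% to 15.3% and tRNA genes 0.212% to 0.392%.

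The rRNA and tRNA shares had groups that did not overlap, unlike the coding share. The 2 rRNA genes took 1.1%, 1.22% and 1.12% of reads in Con, 0.912%, 0.955% and 0.993% in HMD, and 0.926%, 0.905% and 0.895% in Bet+HMD, so every Con library lay above every other library. The 22 tRNA genes took 0.0240% to 0.0342% in Con, 0.0236% to 0.0330% in HMD and 0.0170% to 0.0193% in Bet+HMD, where all 3 libraries were lowest. The 6 coding genes inside the copied stretch took 0.0382% to 0.0742% in Con, 0.0259% to 0.0288% in HMD and 0.0378% to 0.0641% in Bet+HMD, and here the HMD libraries were lowest.

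**Figure D1:**
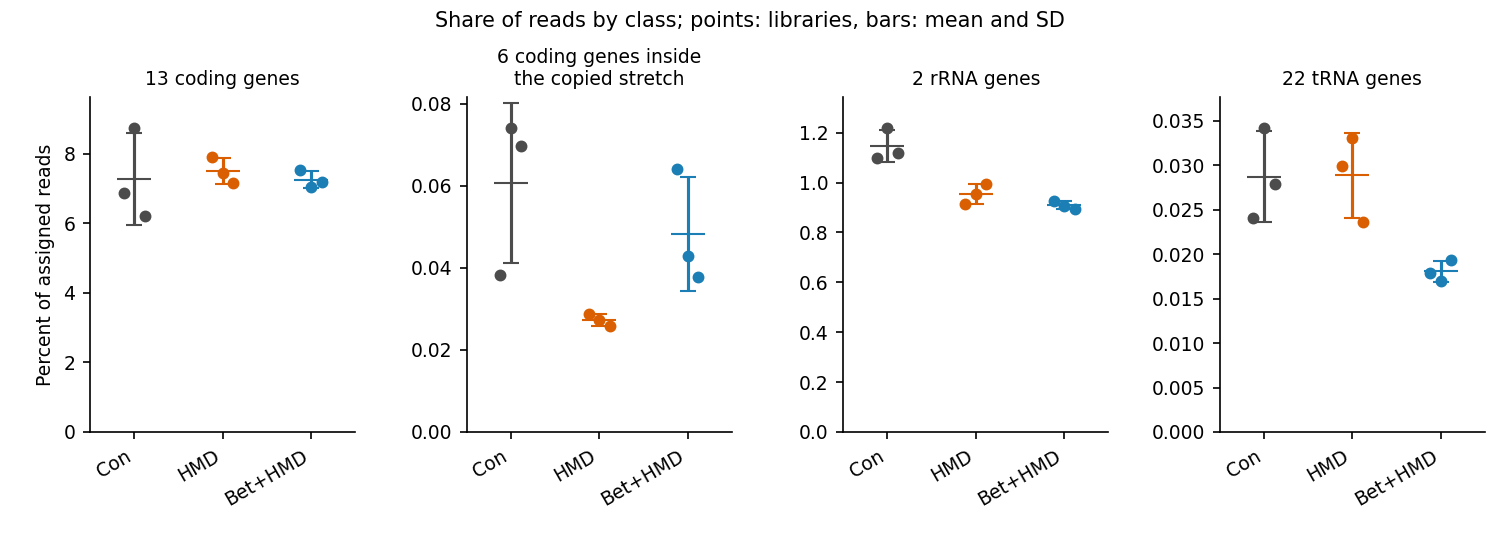
Percent of assigned reads (each axis from 0) on 4 classes of mitochondrial genes in Con, HMD and Bet+HMD; points are libraries, the horizontal mark is the mean and the bar is 1 SD (n = 3). Coding shares overlap between groups, the 3 Con libraries are highest for rRNA (1.1% to 1.22%), and the 3 Bet+HMD libraries are lowest for tRNA (0.0170% to 0.0193%).

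Levels of the coding genes fell into 2 separate ranges that followed the copied stretch. Group means of the 5 genes outside ran from 4154 FPKM (mt-Nd6, Bet+HMD) to 10558 (mt-Cytb, HMD), and those of the 2 genes partly inside from 3590 (mt-Nd4, Bet+HMD) to 19331 (mt-Co1, Bet+HMD). Group means of the 6 genes inside ran from 1.87 FPKM (mt-Atp8, HMD) to 511 (mt-Atp6, Con). In each of the 9 libraries the lowest of the other 7 genes stood above the highest of the 6, by 5.57-fold to 42.6-fold. Within complex IV, mt-Co1 was at 16856 ± 2304 FPKM in Con and mt-Co2 at 165 ± 42.7 (SD, n = 3). Among tRNA genes, 3 of the 5 inside (mt-Ts1, mt-Td and mt-Tk) and 1 of the 17 outside (mt-Tf, the first gene of the sequence) were listed at 0 in every library, where a count of 0 allows up to 3 reads in a library. Such floors cover counting error only. The part that reads left out by the authors' counting have in this division was not tested, since such reads are not used here.

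The order of levels among the genes outside or partly inside was led by mt-Co1, which had the highest FPKM in all 9 libraries. mt-Cytb (10390 ± 1680 in Con) and mt-Nd1 (9501 ± 1367) came next and overlapped between libraries. mt-Nd2, mt-Nd4, mt-Nd5 and mt-Nd6 had Con means of 6513 ± 2165, 5316 ± 1332, 5254 ± 2120 and 5154 ± 2981 FPKM and did not differ beyond their spread. The rRNAs, mt-Rnr1 at 4568 ± 119.7 and mt-Rnr2 at 4586 ± 659 in Con, were at the level of the lower coding genes in libraries from which rRNA had been depleted.

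**Figure D2:**
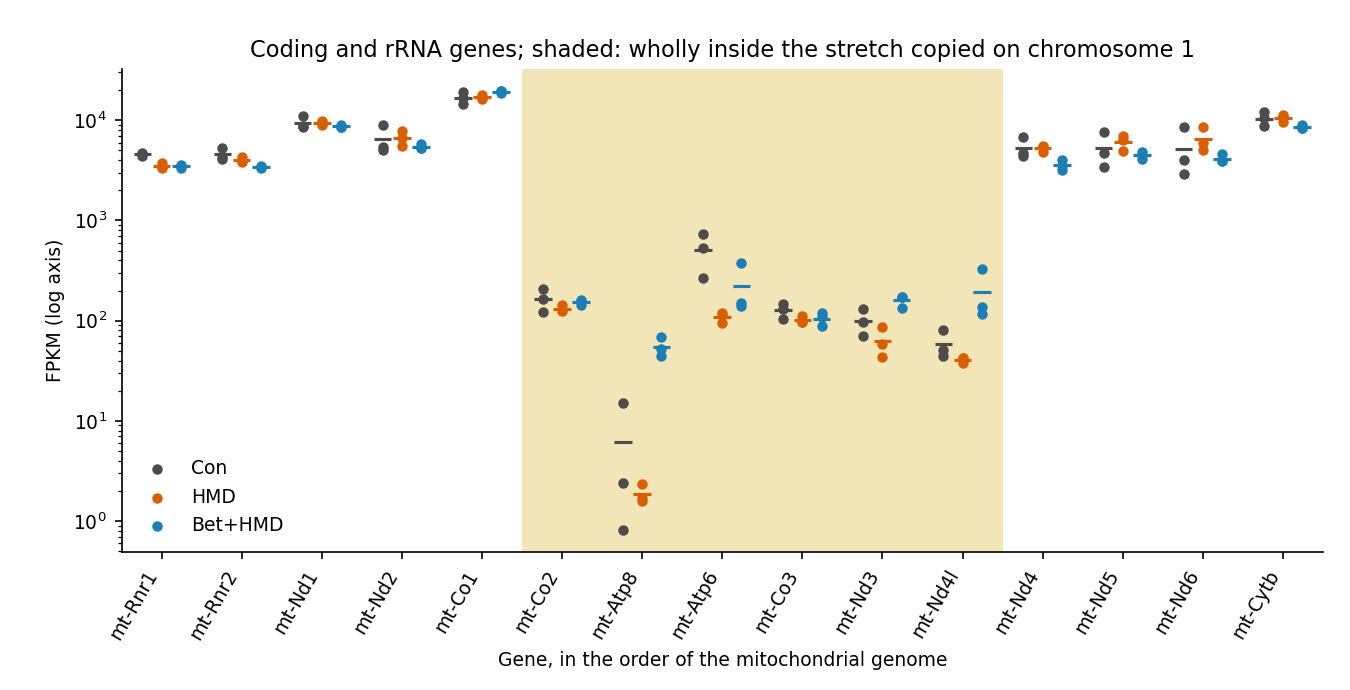
FPKM (log axis) of the 13 coding and 2 rRNA genes in the order of the mitochondrial genome; points are libraries, short lines are group means (n = 3), and shading marks the 6 coding genes wholly inside the stretch copied on chromosome 1. Shaded genes lie between 0.813 and 740.4 FPKM and the others between 2942 and 19628 FPKM.

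The high-methionine diet on its own went with no called change. In HMD versus Con, 0 of the 33 mitochondrial genes tested passed, and 4 had an unadjusted p under 0.05. No overlap between HMD and Con was seen at 5 of these 33 genes, all lower in HMD, beside 9.61% of all genes tested. These were mt-Atp6, mt-Nd4l, mt-Rnr1, mt-Tm and mt-Tg. The p-values here and below measure only the spread between these samples.

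mt-Atp6, the channel subunit of ATP synthase, had the largest difference of the coding genes. Its level was 266, 740.4 and 528 FPKM in Con, 114, 118 and 94.9 in HMD, and 373, 150.1 and 140 in Bet+HMD. HMD lay below both other groups, with no overlap, and Con and Bet+HMD overlapped. The difference of HMD from Con was -2.10 (SE 0.339, 95% interval -2.89 to -1.31), and limma's adjusted p was 0.369.

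mt-Rnr1, the rRNA of the small mitochondrial ribosomal subunit, was at 4446, 4573 and 4686 FPKM in Con and 3326, 3406 and 3785 in HMD. All HMD libraries were lower, by -0.38 (SE 0.123, adjusted p = 0.979 by limma). The most abundant coding genes differed little, mt-Nd1 by -0.01, mt-Cytb by 0.03 and mt-Co1 by 0.02, with 95% intervals of -0.36 to 0.34, -0.35 to 0.42 and -0.34 to 0.37.

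Bet+HMD differed from HMD at 7 of the 13 coding genes, 3 higher and 4 lower. Over all classes 16 of the 33 mitochondrial genes tested passed (43.2% of all 37), beside 48.3% of all genes tested. No overlap between the groups was seen at 19 of these 33, beside 60.1% of all genes tested. The 3 coding genes that rose (mt-Atp8, mt-Nd4l and mt-Nd3) lie inside the copied stretch. The 4 that fell (mt-Nd4, mt-Nd5, mt-Nd6 and mt-Cytb) lie outside or partly inside it. Against Con, Bet+HMD again had 16 called of 33 tested (43.2% of all 37), beside 39.7% of all genes tested, and 16 of these 33 had no overlap, beside 55.1%. The 3 higher coding genes were again mt-Atp8, mt-Nd4l and mt-Nd3, and no coding gene passed as lower. The 2 betaine comparisons share the Bet+HMD libraries. On TPM, which rescales each library to the same FPKM sum, 6 coding genes passed as higher than in HMD. Among them were 5 of the 6 genes inside, and 0 of the 5 outside passed.

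mt-Atp8 (ENSMUSG00000064356), a small membrane subunit of ATP synthase, had the largest difference. It was at 0.813, 2.42 and 15.2 FPKM in Con, 1.69, 1.60 and 2.32 in HMD, and 44.3, 51.8 and 69.0 in Bet+HMD. These values came from 3, 8 and 53 reads, from 6, 5 and 8, and from 157, 187 and 245. Every Bet+HMD library stood above every other library, and the third Con library stood above the rest of the non-betaine libraries. The difference was 4.27 from HMD (SE 0.171, adjusted p = 1.57e-05) and 3.57 from Con (SE 0.732, adjusted p = 0.00911, limma).

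mt-Atp8 and mt-Atp6 lie on 1 mRNA and overlap, yet their levels did not move together. Per length, mt-Atp8 stood at 0.00306, 0.00327 and 0.0288 of mt-Atp6 in Con, 0.0148, 0.0135 and 0.0245 in HMD, and 0.119, 0.345 and 0.493 in Bet+HMD. The ratio was 16-fold higher in Bet+HMD than in HMD and 41.3-fold higher than in Con, with no overlap. On the log2 scale the latter was 5.37, and 4.81 to 6.43 when 1 library was left out, the highest without Con replicate 3. The Con ratios of replicates 1 and 2 rest on 3 and 8 reads of mt-Atp8. The two-sided exact permutation p was 0.1 for each, the smallest this design allows. HMD and Con overlapped (p = 0.4, exact permutation test).

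mt-Nd4l (ENSMUSG00000065947), a complex I subunit whose end overlaps mt-Nd4, was at 50.8, 80.6 and 44.3 FPKM in Con, 42.1, 42.2 and 37.9 in HMD, and 327, 117 and 137 in Bet+HMD. All 3 Bet+HMD libraries were higher than the other 6, and the first of them was far above its own group. The difference was 2.07 from HMD (SE 0.349, adjusted p = 0.00282) and 1.60 from Con (SE 0.408, adjusted p = 0.0206, limma). Without Con replicate 1, or without a filter on low values, the latter was no longer called. mt-Nd4, on the same mRNA, fell from HMD by 0.56 on the log2 scale (SE 0.114, adjusted p = 0.00608), with 5593, 5459 and 4824 FPKM in HMD and 4053, 3510 and 3208 in Bet+HMD. That call was lost without a filter (adjusted p = 0.464) and with centring on the coding genes outside the stretch (-0.26, adjusted p = 0.0997, limma). mt-Nd4 is itself among the genes centred on, so the centring cannot test its call.

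mt-Nd3 (ENSMUSG00000064360), another complex I subunit, was at 70.7, 96.3 and 132 FPKM in Con, 43.5, 85.9 and 58.2 in HMD, and 171, 173 and 133 in Bet+HMD. The difference was 1.38 from HMD (SE 0.234, adjusted p = 0.00289) and 0.70 from Con (SE 0.230, adjusted p = 0.0477, limma), but it reversed when the reads of the nuclear copy were added, as given next. Bet+HMD did not overlap the other groups, though the lowest Bet+HMD library and the highest Con library were close. The call against Con was lost without Con replicate 1 or 2 or any 1 of the Bet+HMD libraries. It was also lost without a filter, without limma's intensity trend and with all 3 groups in one fit. The replicate block and centring on the coding genes outside the stretch removed it too.

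Reads of the nuclear copies were set beside those of the mitochondrial genes. For mt-Nd3 and its copy Gm28438 the mitochondrial gene took 34.8% to 44.1% of the reads of the pair in Con, 19.2% to 38.6% in HMD and 89.7% to 93.3% in Bet+HMD. The copy was at 90.4, 182 and 176 FPKM in Con, 185, 138 and 143 in HMD, and 17.0, 12.6 and 15.5 in Bet+HMD, a fall from HMD by 3.28 on the log2 scale (SE 0.145, adjusted p = 2.16e-05, limma). The pair together held 55.2, 91.7 and 109.5 CPM (reads scaled to library size) in Con, 78.3, 74.0 and 69.8 in HMD, and 68.4, 67.7 and 53.9 in Bet+HMD. The sum in Bet+HMD was thus below that in HMD and overlapped that in Con, while mt-Nd3 by itself was higher than in both. With the copy's reads added, the difference of mt-Nd3 was -0.32 from HMD (adjusted p = 0.0461) and -0.46 from Con (adjusted p = 0.180, limma). Which place the reads came from was not tested.

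For mt-Nd4l and Gm10222 the sum stayed higher in Bet+HMD. It was 31.1, 46.2 and 33.0 CPM in Con, 64.5, 31.9 and 31.4 in HMD, and 131, 122 and 70.2 in Bet+HMD, with no overlap. The mitochondrial gene's share of the pair was 77.4%, 29.7% and 60.3% in the 3 Bet+HMD libraries, so that the first and the second library split nearly equal sums in opposite ways. For mt-Atp6 and Gm10925 the share was 59.5% to 72.6% in Con, 37.6% to 38.4% in HMD, and 60.6%, 39.8% and 39.9% in Bet+HMD, and the sum was lower in HMD than in Con (p = 0.1, exact permutation test, no overlap). For mt-Co3 and mt-Co2, subunits of complex IV, the pairs were split more evenly, with 45.2% to 59.4% of reads on mt-Co3 and 54.9% to 63.1% on mt-Co2. Of the 8 pseudogene copies tested in Bet+HMD versus HMD, the 7 on chromosome 1 and Gm13340, 4 were higher and 3 lower. Gm29216, the copy of the end of mt-Co1, differed by -1.39 and Gm28437, that of mt-Co3, by -0.50. Gm28661 and Gm28439, those of mt-Co2 and mt-Nd4, differed by 0.46 and 0.41. Neither mt-Co3 nor mt-Co2 passed the main test on its own in any comparison, with 104, 132 and 147 FPKM of mt-Co3 in Con, 111, 96.3 and 96.4 in HMD, and 109, 118 and 88.1 in Bet+HMD. Against HMD, mt-Co2 passed as higher in 7 of 20 other settings and mt-Co3 passed in 1 of 20.

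**Figure D3:**
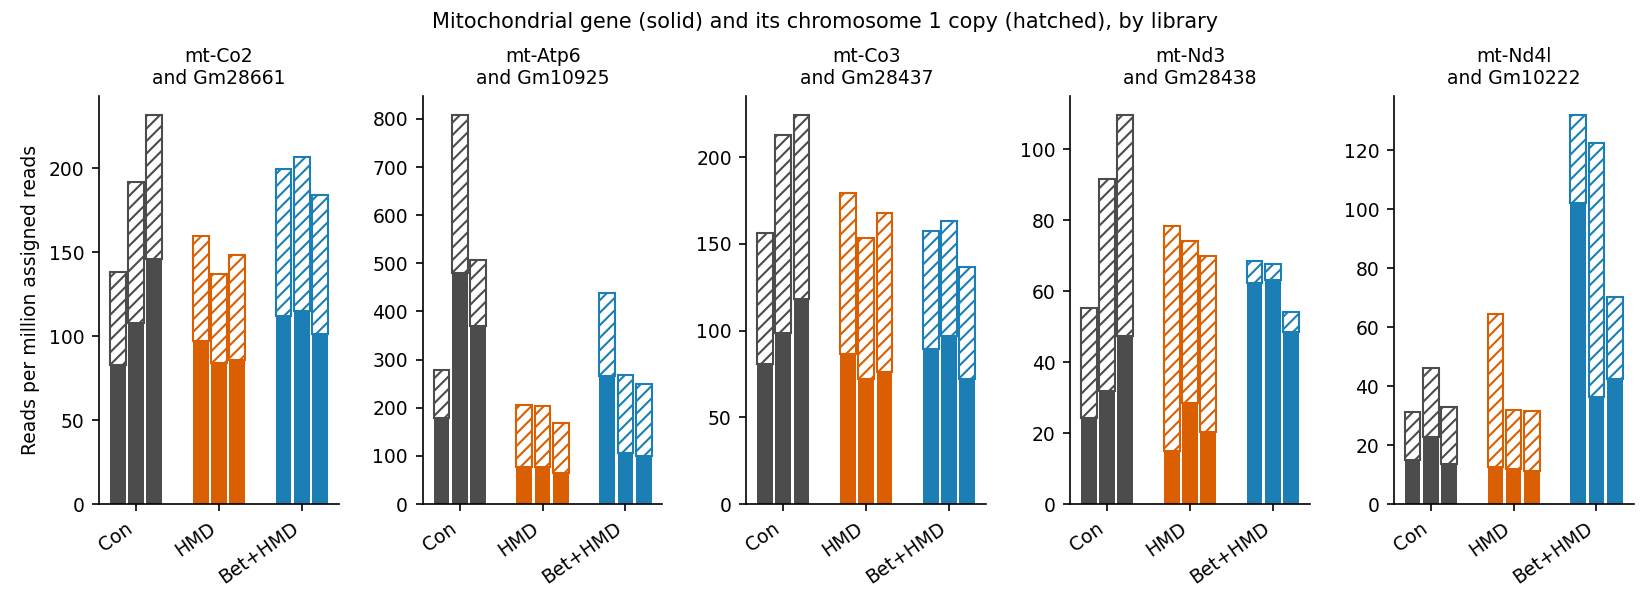
Reads scaled to library size (CPM) on 5 mitochondrial genes (solid) with the reads of their chromosome 1 copies stacked above (hatched), 1 bar per library in Con, HMD and Bet+HMD. In the mt-Nd3 pair the solid part is 89.7% to 93.3% of each Bet+HMD bar and at most 44.1% of the others, and the whole bars overlap between Con and Bet+HMD. In the mt-Nd4l pair the whole bars are highest in Bet+HMD.

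Among the coding genes outside the stretch, Bet+HMD was below HMD at 3 of 5, and all 3 calls were lost after rescaling to TPM, which moved the median difference of all genes from -0.03 to 0.16 and the split of all calls from 3118 higher and 3489 lower to 4496 higher and 1974 lower. mt-Cytb, the catalytic cytochrome b of complex III, was at 11292, 9554 and 10829 FPKM in HMD and 8889, 8416 and 8300 in Bet+HMD. The groups did not overlap in FPKM, and the difference was -0.30 (SE 0.0977, adjusted p = 0.0369, limma). As shares of assigned reads they overlapped: 176651 of 16602496 in Bet+HMD replicate 1, and 167486 of 16031464 in HMD replicate 2. mt-Nd5, a proton-pumping subunit of complex I, differed by -0.43 (adjusted p = 0.0412) and mt-Nd6 by -0.62 (adjusted p = 0.0335, limma). Each of these 3 calls was lost without HMD replicate 1 or any 1 of the Bet+HMD libraries, that of mt-Cytb also without HMD replicate 3 and that of mt-Nd5 without HMD replicate 2. All 3 were also lost without a filter and with a mean of at least 10 reads. They were lost too with all 3 groups in one fit. Centring on the coding genes outside the stretch also removed them, but these 3 genes are among those centred on. That setting pulls their own differences towards 0 and so cannot test these calls. With library size taken without mitochondrial reads, or with the replicate block, mt-Cytb and mt-Nd5 did not pass. Nor did mt-Cytb with limma voom, or mt-Nd5 and mt-Nd6 with quantile normalization. mt-Nd1 and mt-Nd2 differed by -0.11 and -0.28 with intervals of -0.31 to 0.10 and -0.60 to 0.04. mt-Co1, the catalytic core of complex IV, was higher in every Bet+HMD library than in every HMD library, 18813 to 19628 against 16164 to 18007 FPKM. Its difference of 0.19 did not pass (adjusted p = 0.124, limma), though mt-Co1 passed as higher in 3 of 20 other settings.

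mt-Nd6 is the one coding gene on the minus strand, and it varied most between libraries among the coding genes outside the stretch. It was at 3977, 8544 and 2942 FPKM in Con, 5906, 8591 and 5069 in HMD, and 4639, 3891 and 3933 in Bet+HMD. The second library of Con and the second of HMD stood 2.15-fold and 1.45-fold above the next of their group. Relative to mt-Cytb, mt-Nd6 was at 0.709 and 0.899 in these 2 libraries and at 0.339 to 0.523 in the other 7. mt-Nd2, mt-Nd5 and mt-Tp were also highest of their groups in both of these libraries. The second Con library was highest of its group for 9 of 13 coding genes.

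The 2 rRNAs moved unequally. mt-Rnr2, the rRNA of the large ribosomal subunit, was at 4331, 5334 and 4092 FPKM in Con, 3798, 4262 and 3959 in HMD, and 3462, 3315 and 3386 in Bet+HMD. The Bet+HMD libraries were below all others, by -0.24 from HMD (SE 0.0815, adjusted p = 0.0441) and -0.43 from Con (SE 0.128, adjusted p = 0.0359, limma). Of 19 other settings, 4 kept the call against HMD and 8 that against Con. The call against HMD was lost on TPM, and centring on the coding genes outside the stretch turned the difference to 0.06. It was also lost without HMD replicate 2 or 3 or any 1 of the Bet+HMD libraries, and the call against Con without Con replicate 1 or any 1 of the Bet+HMD libraries. mt-Rnr1 was at 3527, 3540 and 3377 FPKM in Bet+HMD, -0.01 from HMD (95% interval -0.21 to 0.19) and -0.39 from Con (SE 0.0943, adjusted p = 0.0167, limma). The latter call was kept in 10 of 19 other settings. It was lost on TPM, without a filter, with a mean of at least 10 reads, with quantile normalization and with the replicate block. Centring on the coding genes outside the stretch, or leaving out any 1 of the Bet+HMD libraries, removed it too. The ratio of mt-Rnr1 to mt-Rnr2 per length was 0.857 to 1.14 in Con, 0.799 to 0.956 in HMD and 0.997 to 1.07 in Bet+HMD, where it lay above HMD with no overlap.

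**Figure D4:**
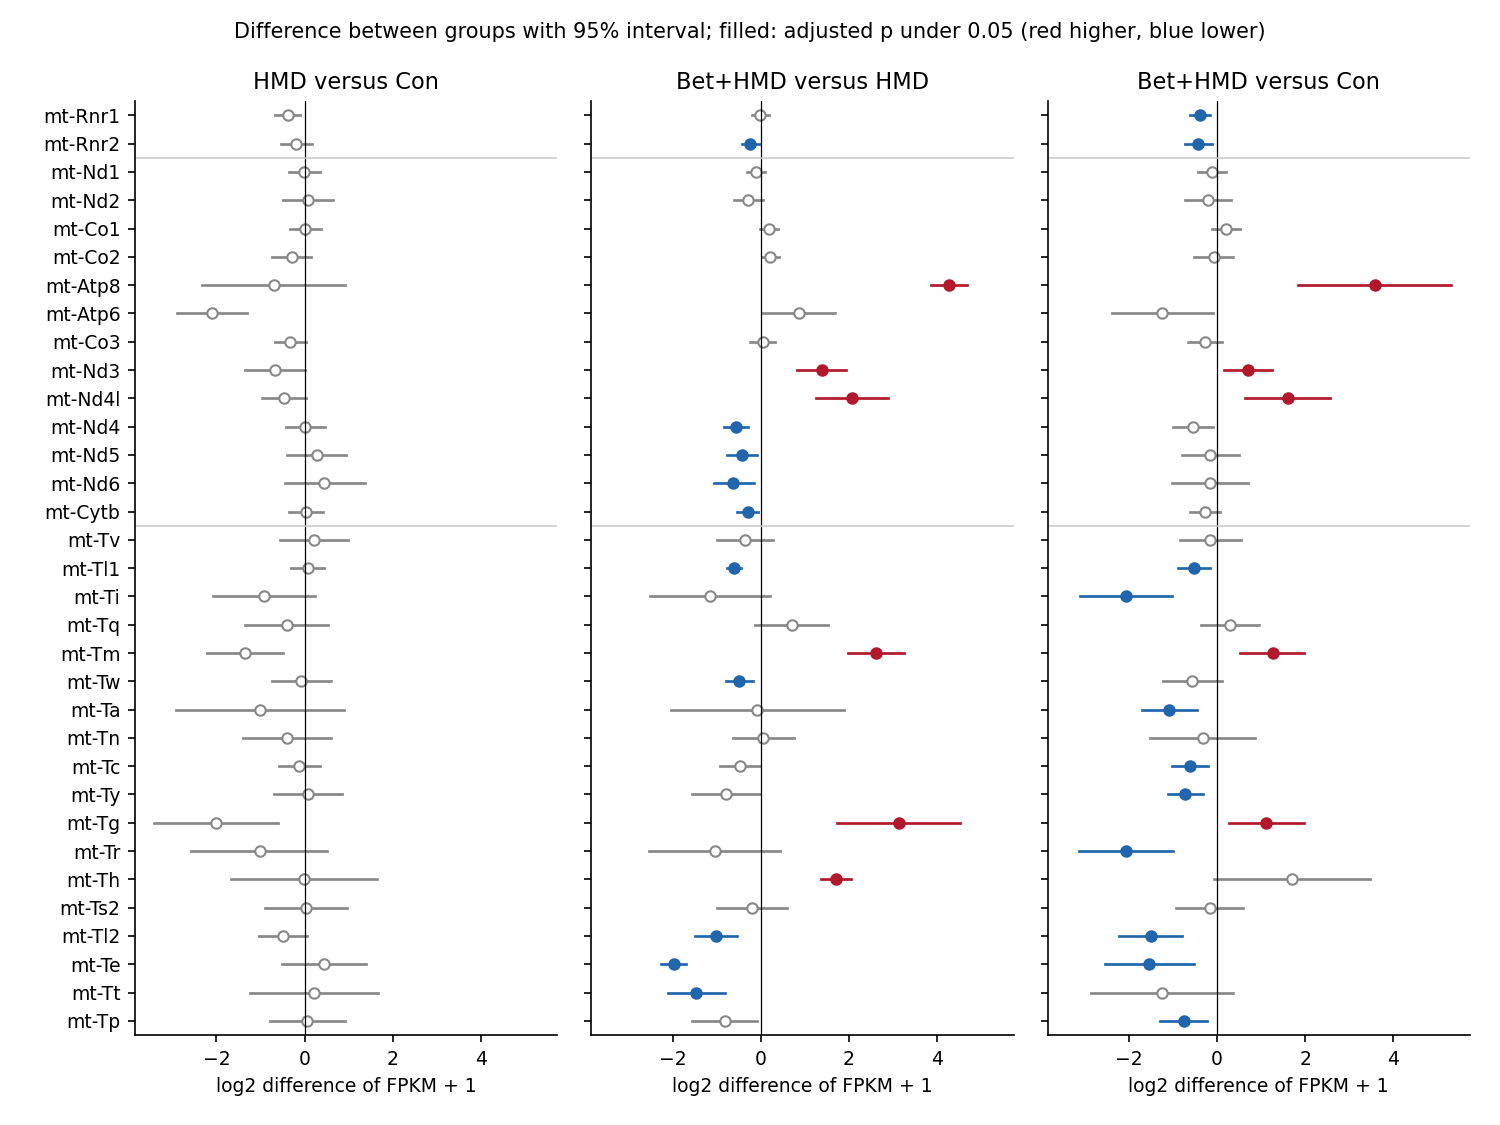
Difference of log2(FPKM + 1) between groups with its 95% interval for the 33 mitochondrial genes tested, grouped as rRNA, coding and tRNA genes, in 3 comparisons; filled points passed an adjusted p under 0.05. No point is filled in HMD versus Con, and mt-Atp8 lies farthest from 0 in both betaine comparisons (4.27 and 3.57).

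The tRNAs were seen at low counts and mostly on 1 strand. The 8 tRNA genes on the minus strand held 87.6% of all tRNA reads, and the 14 on the plus strand, which lie in the same direction as most coding genes, held 12.4%. mt-Tp, the proline tRNA, led with Con, HMD and Bet+HMD means of 1822 ± 608, 1980 ± 912 and 1046 ± 123 FPKM, followed by mt-Tc, the cysteine tRNA, with 945 ± 140.2, 877 ± 203 and 622 ± 116. As a class, the minus-strand tRNAs took 0.0141% to 0.0162% of reads in Bet+HMD and 0.0209% to 0.03% in the other groups, whereas the plus-strand tRNAs of Bet+HMD (0.00295% to 0.00308%) lay within the range of the others (0.00255% to 0.0042%). Since the strand setting of the counting is not stated, reads of a tRNA and of a transcript from the opposite strand cannot be told apart. mt-Tv had 1 to 3 reads in each library. Between groups, 8 of the 18 tRNA genes tested passed in Bet+HMD versus HMD (36.4% of all 22), 3 higher and 5 lower, beside 48.3% of all genes tested. In Bet+HMD versus Con 11 of the 18 tested passed (50% of all 22), beside 39.7% of all genes tested. Of these, 2 were higher and 9 lower, which became 2 higher and 5 lower on TPM.

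Among the tRNAs with called changes, sequences are shown for those that passed against HMD with a difference above 1 on the log2 scale and at least 10 reads in a group on average (GENCODE M21, GRCm38, 5′ to 3′ on the gene's own strand, no capitals). mt-Tm is at MT:3845-3913, mt-Tg at MT:9391-9458, mt-Th at MT:11546-11612 and mt-Tl2 at MT:11671-11741, all on the plus strand, and mt-Te is at MT:14071-14139 on the minus strand.
mt-Tm: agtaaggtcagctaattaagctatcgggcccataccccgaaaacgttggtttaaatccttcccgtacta
mt-Tg: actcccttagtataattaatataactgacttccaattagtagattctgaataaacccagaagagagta
mt-Th: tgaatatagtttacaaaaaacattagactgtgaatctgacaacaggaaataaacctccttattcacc
mt-Tl2: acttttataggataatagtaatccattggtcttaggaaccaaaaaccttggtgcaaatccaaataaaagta
mt-Te: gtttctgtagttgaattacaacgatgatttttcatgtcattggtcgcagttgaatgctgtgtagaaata

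mt-Tm, the methionine tRNA, which both starts and extends mitochondrial proteins, was at 27.2, 49.2 and 20.3 FPKM in Con, 17.5, 7.57 and 10.3 in HMD, and 86.8, 61.5 and 74.1 in Bet+HMD, from 34, 55 and 24 reads, from 21, 8 and 12, and from 104, 75 and 89. The 3 groups were fully separate, with HMD lowest and Bet+HMD highest. The difference of Bet+HMD was 2.61 from HMD (SE 0.270, adjusted p = 0.000374) and 1.26 from Con (SE 0.305, adjusted p = 0.0174, limma), and that of HMD from Con was -1.36 (adjusted p = 0.956). The call against Con was lost without Con replicate 1 or without Bet+HMD replicate 1 or 3.

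mt-Tg, the glycine tRNA, lies inside the copied stretch next to mt-Nd3. It had 8, 8 and 18 reads in Con, 0, 5 and 2 in HMD, and 30, 32 and 16 in Bet+HMD. The difference was 3.13 from HMD (SE 0.593, adjusted p = 0.00459) and 1.12 from Con (adjusted p = 0.0454, limma). Bet+HMD overlapped Con, and the latter call was lost without replicate 1 or 2 of Con or of Bet+HMD. That call was also lost without a filter, with all 3 groups in one fit, with limma voom and with the replicate block. mt-Th, the histidine tRNA, had 8, 22 and 86 reads in Con, 23, 27 and 23 in HMD, and 75, 84 and 103 in Bet+HMD, a difference of 1.71 from HMD (SE 0.148, adjusted p = 0.000201, limma). Like mt-Atp8, it was far higher in the third Con library than in the other Con libraries, and Bet+HMD did not pass against Con (adjusted p = 0.111). Its call against HMD was lost with all 3 groups in one fit (adjusted p = 0.0602, limma).

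mt-Te, the glutamate tRNA next to mt-Nd6, was at 512, 1036 and 285 FPKM in Con, 777, 719.7 and 677 in HMD, and 181, 157 and 216 in Bet+HMD. All Bet+HMD libraries were below all others. The difference was -1.98 from HMD (SE 0.122, adjusted p = 6.17e-05) and -1.54 from Con (SE 0.429, adjusted p = 0.0283, limma), and the call against Con was lost without Con replicate 1 or any 1 of the Bet+HMD libraries. That call was also lost without a filter and with quantile normalization. mt-Nd6, its neighbour on the same strand, differed from HMD by -0.62.

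mt-Tl2, a leucine tRNA, was at 66.2, 83.4 and 133 FPKM in Con, 59.2, 67.1 and 65.9 in HMD, and 25.1, 44.6 and 26.7 in Bet+HMD, where all libraries were lowest. It differed by -1.02 from HMD (adjusted p = 0.00562) and -1.51 from Con (adjusted p = 0.00857, limma). The other leucine tRNA, mt-Tl1, which follows mt-Rnr2, differed by -0.60 (adjusted p = 0.000537) and -0.53 (adjusted p = 0.0332, limma), and its call against Con was lost without Con replicate 1 or any 1 of the Bet+HMD libraries, as well as without a filter, on TPM, with quantile normalization, limma voom or the replicate block, and with centring on the coding genes outside the stretch. mt-Tw, the tryptophan tRNA, passed as lower against HMD only (-0.49, adjusted p = 0.0186, limma), a call lost without HMD replicate 1 or Bet+HMD replicate 2, on TPM (adjusted p = 0.0955, limma), with quantile normalization, with limma voom, with all 3 groups in one fit and with that centring. mt-Tt, the threonine tRNA, also passed as lower against HMD, but with 2, 3 and 3 reads against 0, 0 and 1 both groups were at or under 3 reads and no fold is given.

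Against Con only, Bet+HMD was lower at the tRNAs of isoleucine (mt-Ti, -2.07, adjusted p = 0.0107), arginine (mt-Tr, -2.07, adjusted p = 0.0112) and alanine (mt-Ta, -1.08, adjusted p = 0.0184, limma). These rest on few reads. mt-Ti had 9, 2 and 5 in Bet+HMD, against 16, 30 and 25 in Con. mt-Tr had 4, 9 and 10 against 26, 61 and 23, and mt-Ta 7, 4 and 8 against 17, 16 and 10. In HMD mt-Ta had 1, 5 and 28 reads. Against Con, Bet+HMD was also lower at mt-Tc (-0.61), mt-Ty for tyrosine (-0.72) and mt-Tp (-0.76), with limma's adjusted p of 0.0299, 0.0163 and 0.0370. These last 3 calls were lost on TPM and without Bet+HMD replicate 1 or 2, that of mt-Tc also without Con replicate 1 or 3, and that of mt-Tp without Bet+HMD replicate 3. The call of mt-Ta was lost without Con replicate 1 or 2, and quantile normalization turned mt-Tc to 0.01. That these 6 passed in one comparison and not in the other was not tested as a difference. mt-Tq, mt-Tn and mt-Ts2, the tRNAs of glutamine, asparagine and serine, passed in neither, with differences from HMD of 0.70, 0.06 and -0.20. mt-Tn had 542 reads in the third Con library and 138 to 331 in the other 8.

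Nuclear genes whose products work with these transcripts were set beside them. Tfam, which packages mitochondrial DNA and starts its transcription, was at 9.69 ± 1.15 FPKM in Con, 9.54 ± 0.980 in HMD but 5.50 ± 0.313 after betaine (SD, n = 3), a difference of -0.69 from HMD (adjusted p = 0.000913) and -0.71 from Con (adjusted p = 0.00223, limma). Polrmt, the mitochondrial RNA polymerase, differed from HMD by -0.07 (adjusted p = 0.568, limma). Lrpprc, which stabilizes mitochondrial mRNAs, had 12.2 ± 1.07 FPKM in HMD against 9.22 ± 0.464 in the Bet+HMD group, a difference of -0.37 (adjusted p = 0.0107, limma). None of the 3 passed in HMD versus Con.

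Of 14 tested genes of mitochondrial DNA transcription and replication, 6 were higher and 2 lower in Bet+HMD than in HMD. In the main test 22.8% of all genes tested were higher and 25.5% lower, a background for each list here. With quantile normalization the counts were 2 and 2. Tefm, a transcription elongation factor, was at -0.57, whereas the median of the list was 0.18, beside -0.03 over all genes tested. The 6 higher genes of the list are not named here. Of 18 genes of mitochondrial RNA processing, stability and decay, 2 were higher and 6 lower, counts that became 3 higher and 0 lower on TPM and 4 higher and 0 lower with centring on the mitochondrial coding genes outside the stretch. The leading members were Pnpt1, a subunit of the RNA-degrading complex, at 0.78, and Grsf1, an RNA granule protein, at -0.37. Of 15 RNA-modifying enzymes 2 were higher and 3 lower, which became 0 and 4 with quantile normalization and 5 and 0 with that centring. Over all 13672 genes tested, quantile normalization gave 3041 higher and 3419 lower, TPM 4496 and 1974, and that centring 5303 and 1033. Of 17 mitochondrial aminoacyl-tRNA synthetases, which charge the tRNAs, 6 were higher and 4 lower, with a median of -0.03. The 6 higher synthetases are not named here. The largest difference among the synthetases was Lars2, for leucine, with 21.9 ± 9.49 FPKM in HMD against 3.79 ± 0.863 after betaine (-2.19, adjusted p = 0.000831, limma). Of 7 regulators of mitochondrial biogenesis 2 were higher and 1 lower. In HMD versus Con 0 genes of these lists passed.

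Most nuclear genes for the same complexes were lower in Bet+HMD than in HMD. For complex I, 27 of 37 tested nuclear genes were lower and 2 higher, with a median difference of -0.73, beside -0.03 over all genes tested. Complex III had 6 of 9 lower (median -0.66), complex IV 7 of 10 lower and 1 higher (median -0.92), and ATP synthase 16 of 17 lower (median -0.76). The 13 mitochondrial coding genes had 4 lower and 3 higher, with a median of 0.05. With centring on the coding genes outside the stretch the lower counts of the nuclear genes were 18, 6, 6 and 8, beside 1033 of all 13672 genes tested. On TPM they were 21, 6, 6 and 13, beside 1974 of all 13672 genes tested. The mitochondrial coding genes then had 1 lower and 6 higher.

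The nuclear genes that fell most were Ndufc1 (28.1 ± 0.395 FPKM in HMD against 6.06 ± 1.76 after betaine, -2.07), Uqcr10 (102 ± 17.8 and 32.6 ± 4.44, -1.61), Cox7a2 (93.3 ± 7.09 and 25.6 ± 4.21, -1.83) and Atp5e (30 ± 11.7 and 4.97 ± 0.740, -2.32), all small subunits, 1 from each complex. Of 77 tested mitochondrial ribosomal proteins, which assemble with mt-Rnr1 and mt-Rnr2, 32 were lower and 5 higher (median -0.27), led by Mrps24 at -1.69. Centring on the mitochondrial coding genes outside the stretch turned that median to 0.03, with 11 lower and 9 higher. The same centring moved the median of all 13672 genes tested from -0.03 to 0.28, with 5303 higher and 1033 lower. In Bet+HMD versus Con the lower counts were 25 of 37, 7 of 9, 7 of 10 and 15 of 17 for the complexes and 29 of 77 for the ribosomal proteins, beside 20.4% of all genes tested. With centring on the mitochondrial coding genes outside the stretch they were 11, 3, 3, 5 and 6, beside 336 lower of all 13643 genes tested. The part that the higher share of nuclear-retained RNA in these libraries has in these differences was not tested.

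**Figure D5:**
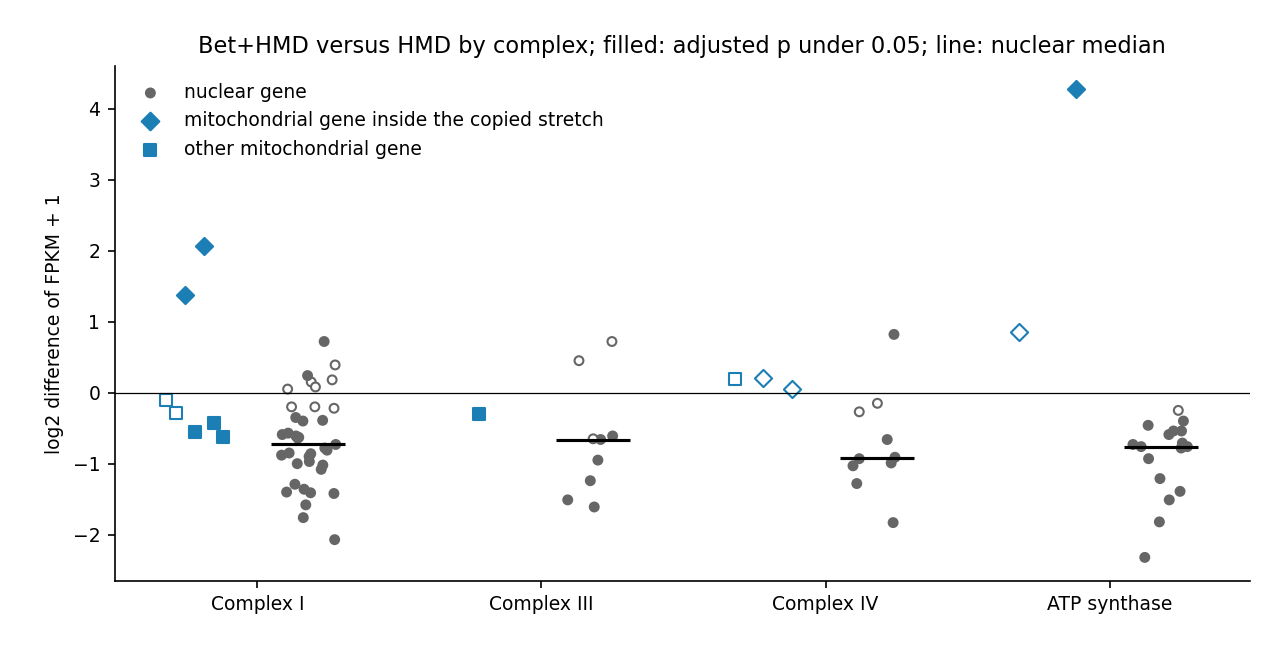
Difference of log2(FPKM + 1) between Bet+HMD and HMD for mitochondrial (blue) and nuclear (grey) genes of 4 complexes; filled points passed an adjusted p under 0.05 and lines mark the nuclear medians (-0.73, -0.66, -0.92 and -0.76). Mitochondrial genes inside the copied stretch (diamonds) lie at or above 0.05, and most nuclear genes lie below 0.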

How the data were processed

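Total RNA of 9 hippocampi was depleted of ribosomal RNA and sequenced paired-end with a stranded kit by the authors. The submitters' processing notes name HISAT2 2.1.0, featureCounts 1.5.0-p3 and mm10, while the study's methods state other versions. Settings for strand, multiply mapped reads and overlapping genes are not given in the sources used here. The authors deposited FPKM in 2 tables. The later one, with all 9 samples, was used, and the earlier one served as an alternative for HMD versus Con. The deposited tables also give gene length in bases (another unit). Coordinates of all 37 genes equal GENCODE M21 on GRCm38.

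In each library FPKM times gene length was a whole multiple of the worth of 1 read (tolerance 0.05) for 100% of values above 0. This gave read counts, with 16031464 to 18291952 reads assigned to genes per library. limma 3.58.1 (R 4.3.3) with an intensity trend was applied to log2(FPKM + 1) of 2 groups at a time, keeping genes whose mean FPKM reached 1. p-values were two-sided and adjusted by Benjamini-Hochberg over all genes tested, at a threshold of 0.05. The fit was tested on simulated data. Pseudogenes were aligned to mitochondrial genes without gaps. Ratios, and the sum and split of each mitochondrial gene with its copy, were compared by exact permutation tests. Shares of all reads were described without a test.

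Members and gene lists were chosen with earlier results of these data known. All coding and rRNA genes were named, tRNAs with a mean of at least 10 reads in a group or a passed test, pseudogene copies with a mean of at least 10 reads in a group, at most 4 called genes of a nuclear list, and Polrmt, Tfam and Lrpprc. Alternatives changed the pseudocount, filter, scaling, model, samples, replicate block or table. Centring on the coding genes outside the stretch used the mean of the 7 coding genes not wholly inside it.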

Additional observations from a re-analysis of the deposited data

How the results depend on the processing

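The diet comparison called 0 coding and 0 tRNA or rRNA genes in all settings tried except centring on the coding genes outside the copied stretch, chosen after seeing the data, which called 1 coding gene, mt-Atp6. The 7 coding genes called in Bet+HMD versus HMD became 3 without a filter, 4 with a mean of at least 10 reads and 4 with all 3 groups in one fit, and leaving out 1 sample gave 4 to 7. The count was 4 without Bet+HMD replicate 2 or 3. The 9 tRNA and rRNA genes became 5 with all 3 groups in one fit, and leaving out 1 sample gave 7 to 11. For Bet+HMD versus Con, the 3 coding genes became 1 without a filter and 5 with limma voom, and 2 to 5 when 1 sample was left out, with 5 without Con replicate 3. The 13 tRNA and rRNA genes became 6 without a filter, 7 on TPM, 7 with quantile normalization and 8 with that added centring. Leaving out 1 sample gave 4 to 14, with 6 without Con replicate 1 and 4, 5 and 7 without Bet+HMD replicates 1, 2 and 3. mt-Atp8 passed in both betaine comparisons in all settings tried (4.10 to 4.87 and 2.89 to 4.47).

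Same-numbered samples come from separate mice. Their deviations correlated by -0.0581, 0.337 and 0.32 in HMD versus Con, where replicates 2 and 3 went best with their own number, a hint from the data and not the design, and by -0.176 to 0.0171 in the betaine comparisons. Not every pair passed 0.1, so the numbers were not taken as pairs. With the replicate block, 8 of the 13 tRNA and rRNA genes passed in Bet+HMD versus Con, and the counts of the other comparisons stayed within 1.5 times.

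Reversed values were mt-Nd3 with the reads of its nuclear copy added, also chosen after seeing the data (-0.32 and -0.46), mt-Rnr2 with the added centring (0.06), mt-Tc with quantile normalization (0.01), and mt-Nd1, which then passed as higher from HMD (0.10). The cause was not tested. The share of reads on mitochondrial genes differed by -0.306 points between Bet+HMD and HMD, and by 0.134 as a share of summed FPKM. Depth limits the tRNAs, of which mt-Tt, mt-Tv, mt-Tg, mt-Ti, mt-Tr and mt-Ta rest on few reads in some or all groups.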
